A study of Mus musculus with 12 samples.

Results

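The genes described here were 10 imprinted genes with known roles in growth, H19, Igf2, Dlk1, Meg3, Phlda2, Cdkn1c, Peg3, Mest, Grb10 and Plagl1, followed through 12 mouse liver and liver tumor libraries. They were taken from a list of symbols matched by Entrez identifier, and all 10 were found among the 26301 genes of the count table. Phlda2 was on the list because its level was lower in tumors lacking E2f7, E2f8 and Rb1 than in tumors lacking E2f7 and E2f8 only. Its tumor levels are therefore given as a description, without a test.

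An imprinted gene is read mainly from the copy inherited from the mother or mainly from the copy inherited from the father. Imprinted genes lie in clusters, each under a control region whose DNA methylation is set in the egg or the sperm. Genes read from the paternal copy, such as Igf2, Dlk1, Peg3, Mest and Plagl1, tend to promote fetal growth, and genes read from the maternal copy, such as H19, Phlda2, Cdkn1c and Grb10, tend to restrain it. In liver, H19, Igf2 and Dlk1 are abundant before birth and are turned down afterwards, and H19 and Igf2 often come back in liver tumors.

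Of the 12 libraries, 4 came from livers of adult wild-type mice (control), 4 from liver tumors with Alb-Cre deletion of E2f7 and E2f8 (DKO) and 4 from liver tumors with Alb-Cre deletion of E2f7, E2f8 and Rb1 (TKO). E2F7 and E2F8 are the atypical E2F repressors and RB is the retinoblastoma protein, both of which hold back the E2F-driven genes of the cell cycle. The tissues came from ageing mice killed at humane end-points, and the control mice were matched to them by age. Alb-Cre acts in hepatocytes and in cells derived from their precursors, so that blood vessel, immune and stromal cells in the tumors kept the deleted genes. The controls were non-tumor tissue, so genotype and tumor formation cannot be told apart in a comparison with them. Each library was a bulk tissue, in which fewer cells of a type and less RNA per cell cannot be told apart, and the counts did not separate the maternal from the paternal copy.

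Polyadenylated RNA was sequenced, and the table held 9165812 to 16424973 counts per library. Rb1 had 144, 53, 122 and 105 counts in control livers, 147, 106, 135 and 142 in DKO tumors and 70, 77, 64 and 43 in TKO tumors. In counts scaled to a common library size by TMM (CPM), Rb1 was lower in all 4 TKO tumors than in any other library, at 3.21 to 5.47 CPM against 6.52 to 11.3 CPM. E2f7 had 7 to 15 counts in control livers, 4 to 24 in DKO tumors and 9 to 14 in TKO tumors, and E2f8 had 61 to 88, 99 to 577 and 165 to 681 counts. A gene's total count does not show whether the floxed exons were read, so E2f7 and E2f8 did not check the deletions. The hepatocyte markers Alb, Apoa1, Ttr, Serpina1a and Cyp2e1 together made up 58979 to 319201 CPM, with the lowest sum in TKO 4, and none of the 5 was at 0 in any group.

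The position of each gene on NCBIM37, the assembly of the authors' mm9 alignment, showed 4 of the 10 on distal chromosome 7. H19 (Entrez 14955) was at chr7:149761434-149764048, Igf2 (16002) at chr7:149836673-149852721, Cdkn1c (12577) at chr7:150644255-150646955 and Phlda2 (22113) at chr7:150687450-150688446, all on the minus strand. H19 and Igf2 share a control region, and Cdkn1c and Phlda2 belong to the neighbouring Kcnq1 domain. Dlk1 (13386, chr12:110691033-110701546) and Meg3 (17263, chr12:110779211-110809936) were on the plus strand of the Dlk1-Dio3 domain. The others stood alone on the list, namely Peg3 (18616, chr7:6656603-6683132, minus strand), Mest (17294, chr6:30673547-30698457, plus strand), Grb10 (14783, chr11:11830511-11938686, minus strand) and Plagl1 (22634, chr10:12810497-12851500, plus strand). Mest shared 904 exonic bases, 23.0% of its exonic length, with Copg2 on the opposite strand, and Meg3 shared 1402 bases (7.75%) with 3 other annotated genes. The strand setting of the counting was not given in the sources used here, so reads from these shared bases cannot be assigned to a strand.

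The sequence most closely tied to the question is the promoter of Phlda2, which codes for a small pleckstrin homology domain protein that limits placental growth. The 250 bases before its annotated start, from RefSeq on GRCm38.p6 (chr7:143502525-143502774, minus strand), are shown because E2F repressors were deleted in both kinds of tumor. The capitals mark a CCAAT word.
Phlda2 promoter: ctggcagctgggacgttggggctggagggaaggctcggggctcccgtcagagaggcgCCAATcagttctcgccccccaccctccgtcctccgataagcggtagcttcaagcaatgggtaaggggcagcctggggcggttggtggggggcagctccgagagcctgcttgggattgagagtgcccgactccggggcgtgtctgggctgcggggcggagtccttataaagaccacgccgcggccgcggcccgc
This window held 21 CpG sites against a median of 6 over 32851 promoter windows, of which 16.3% held at least as many. The CCAAT word, searched on both strands, began 193 bases before the start, and 33.8% of all windows hold that word. None of the E2F words TTTCGCGC, TTTGGCGC, TTTCCCGC and TTTGCCGC, which overlap in their letters and were also searched on both strands, was in it. An E2F word was in 1.86% of all windows and, of the 8 listed genes that had a window, in that of Plagl1. A match or its absence in this window describes the letters only.

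Several of the genes also carry microRNAs, which make the RNA of the H19, Igf2, Meg3 and Mest loci more than a readout of growth. The mature sequences below are from RefSeq on GRCm38.p6, with the seed, bases 2 to 8, in capitals. They are shown because the RNAs of H19, Igf2, Meg3 and Rian differed strongly between libraries of a group, and Mest was added as the other host on the list. No 2 of them share a seed. Mature microRNAs are not polyadenylated, so their own levels were not measured.
miR-675-5p in H19, chr7:142577112-142577133, minus strand: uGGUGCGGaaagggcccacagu
miR-675-3p in H19, chr7:142577078-142577099, minus strand: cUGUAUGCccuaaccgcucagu
miR-483-5p in Igf2, chr7:142654968-142654989, minus strand: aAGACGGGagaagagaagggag
miR-483-3p in Igf2, chr7:142654932-142654952, minus strand: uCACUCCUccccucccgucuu
miR-770-5p in Meg3, chr12:109563710-109563731, plus strand: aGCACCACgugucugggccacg
miR-335-5p in Mest, chr6:30741314-30741336, plus strand: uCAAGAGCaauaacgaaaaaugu
miR-370-3p in Rian, the neighbour of Meg3, chr12:109618305-109618326, plus strand: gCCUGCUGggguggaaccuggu

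Per length of exon, the RNA of the 10 genes differed widely in normal adult liver. In control livers H19 had the highest median level, 9.60 CPM per kb, followed by Igf2 at 3.27, Cdkn1c at 1.18, Mest at 0.915, Peg3 at 0.423, Grb10 at 0.375, Phlda2 at 0.372, Meg3 at 0.147, Plagl1 at 0.110 and Dlk1 at 0.0238 CPM per kb. Most neighbours in this order overlapped between libraries. The order had 3 steps without overlap, from Mest to Peg3, from Phlda2 to Meg3 and from Plagl1 to Dlk1. In DKO tumors Phlda2 stood second, at a median of 1.90 CPM per kb, behind H19 at 13.4, and overlapped with Mest at 1.39 CPM per kb. In TKO tumors Phlda2 was again seventh of the 10, at 0.347 CPM per kb, between Grb10 at 0.620 and Plagl1 at 0.182, and its range overlapped with both.

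**Figure D1:**
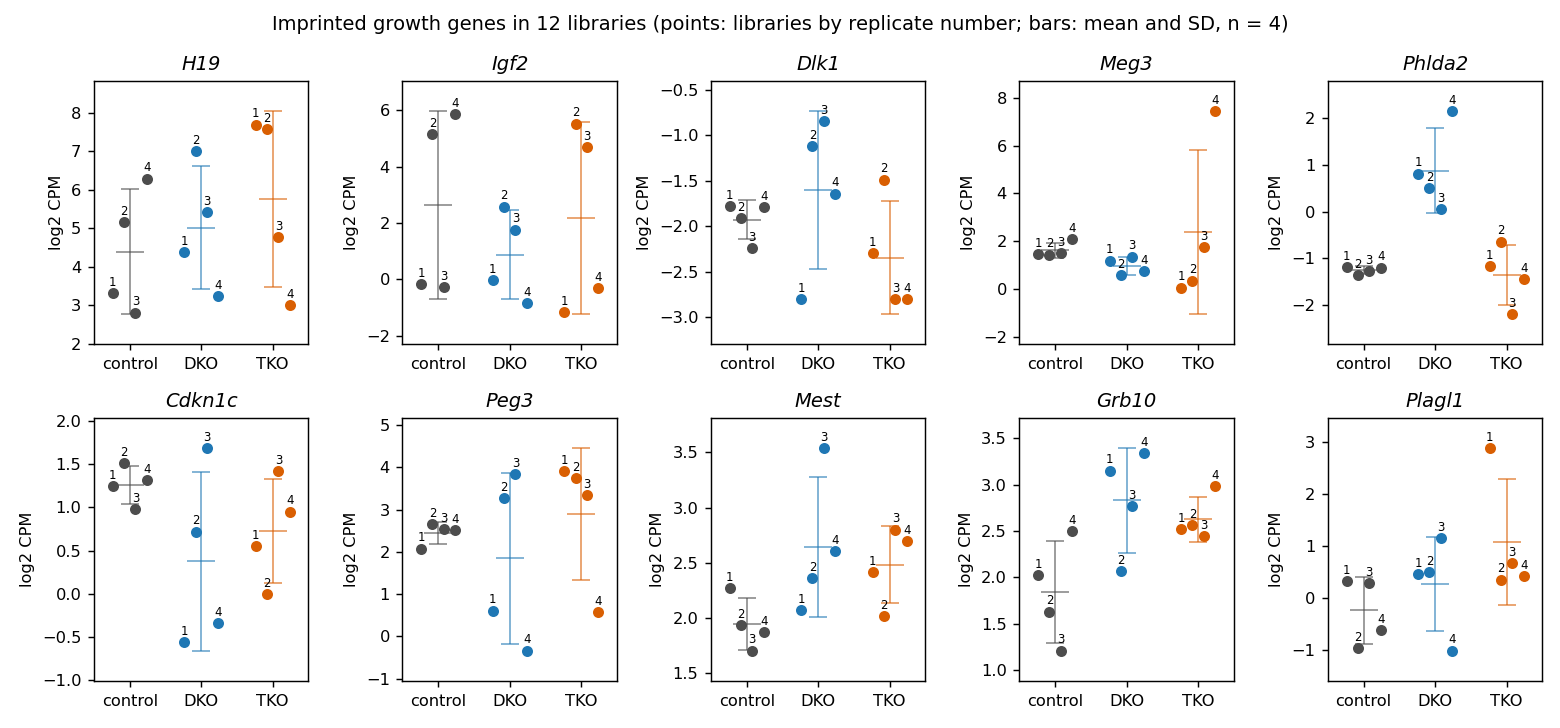
The level of each of the 10 genes in each library, as log2 CPM (vertical axis, a separate range per gene), for 4 control livers, 4 DKO tumors and 4 TKO tumors (horizontal axis). Points carry the replicate number, and bars show the mean and SD of 4 libraries; Phlda2 in the 4 DKO tumors lies above every other library, and Meg3 in TKO 4 lies far above the rest.

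Phlda2 was scarce in normal liver and in TKO tumors and was higher in DKO tumors. The control livers held 4, 2, 4 and 4 counts of Phlda2, the DKO tumors 21, 16, 15 and 72, and the TKO tumors 5, 7, 1 and 3. Every DKO tumor was above every control liver and every TKO tumor, and the control and TKO ranges overlapped. Of all genes tested, 16.2% did not overlap in CPM between DKO tumors and control livers (8.87% higher), and 4.87% did not between TKO and DKO tumors (2.12% lower), the contrast for which Phlda2 was chosen. In CPM the controls had 0.297, 0.246, 0.271 and 0.293, the DKO tumors 1.61, 1.27, 0.887 and 4.25, and the TKO tumors 0.301, 0.497, 0.0767 and 0.224. The DKO mean was 2.00 CPM ± 1.52 (SD, n = 4), against 0.277 ± 0.023 (SD, n = 4) in control livers and 0.275 ± 0.175 (SD, n = 4) in TKO tumors.

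Summed over libraries, 124 counts in DKO tumors against 14 in control livers gave a depth-adjusted ratio of 7.44, and against 16 in TKO tumors a ratio of 7.43, and the TKO to control ratio was 1.00. Phlda2 was chosen for these levels, so no interval is given. DKO 4 held 72 of the 124 counts. With DKO 4 left out, the fitted log2 fold change of DKO tumors over controls went from 2.81 to 2.13. That of TKO over DKO tumors went from -2.82 to -2.13. The libraries nearest to each other across the gap were DKO 3 at 0.887 CPM and TKO 2 at 0.497 CPM, which rest on 15 and 7 counts. The low-count filter asked for about 0.691 CPM in 4 libraries, and Phlda2 passed it through the 4 DKO tumors alone.

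The genes on either side of Phlda2, Slc22a18 and Nap1l4, did not pass the test in DKO tumors against controls. Slc22a18, a transporter gene next to Phlda2 that is also read from the maternal copy, had 785 to 1255 counts in control livers, 842 to 1723 in DKO tumors and 841 to 1090 in TKO tumors, with a log2 fold change of -0.09 (SE 0.164, edgeR adjusted p = 0.779) in DKO tumors over controls. Nap1l4, a histone chaperone gene on the other side, had a log2 fold change of 0.02 (SE 0.112, edgeR adjusted p = 0.927) in the same comparison. Kcnq1ot1, the long RNA that silences the domain on the paternal copy, had 18 to 48 counts in control livers, 32 to 82 in DKO tumors and 30 to 51 in TKO tumors. Tnfrsf23, a decoy receptor gene farther along the chromosome, had 11, 1, 13 and 25 counts in control livers, 42, 34, 24 and 97 in DKO tumors and 31, 21, 11 and 19 in TKO tumors. Its log2 fold change was 1.78 (SE 0.558, edgeR adjusted p = 0.0874) for DKO tumors over controls and -1.21 (SE 0.537, edgeR adjusted p = 0.554) for TKO over DKO tumors, neither past the threshold of 0.05.

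Cdkn1c, in the same domain, codes for the cyclin-dependent kinase inhibitor p57. It had 2.22, 2.70, 1.83 and 2.34 CPM in control livers, 0.537, 1.503, 3.08 and 0.649 CPM in DKO tumors and 1.33, 0.853, 2.53 and 1.79 CPM in TKO tumors. In both kinds of tumor 3 of 4 libraries were below every control liver, and DKO 3 was above them all. DKO tumors had a log2 fold change of -0.64 (SE 0.504, edgeR adjusted p = 0.469) over controls, and TKO tumors one of -0.48 (SE 0.503, edgeR adjusted p = 0.685). The summed level of the stellate and fibroblast markers Col1a1, Col3a1, Des, Lrat and Pdgfrb was also highest in DKO 3, at 194 CPM against 62.9 to 149 CPM in the other 11 libraries, and none of the 5 markers was at 0. TKO 2 had 137 CPM of these markers and the lowest Cdkn1c of the TKO tumors. Among DKO tumors, DKO 3 was also highest for the summed biliary (108 CPM), Kupffer and macrophage (342 CPM) and lymphocyte (12.5 CPM) markers. The part of any of these cells in the Cdkn1c values was not tested.

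H19 and Igf2 ranged over 11.4 to 152 times between the 4 libraries of a group and did not pass the test in any comparison. H19 makes a long noncoding RNA, and Igf2 codes for insulin-like growth factor 2, the main fetal growth factor of this list. H19 had 132, 291, 101 and 1067 counts in control livers, 270, 1623, 723 and 157 in DKO tumors and 3444, 2677, 352 and 106 in TKO tumors. TKO 1 and TKO 2, at 208 and 190 CPM, were above all other libraries, whereas TKO 4, at 7.91 CPM, was among the lowest. Means were 32.6 CPM ± 33.0 (SD, n = 4) in control livers, 50.3 ± 53.9 (SD, n = 4) in DKO tumors and 108 ± 105 (SD, n = 4) in TKO tumors. The log2 fold change was 0.62 (SE 1.04, edgeR adjusted p = 0.752) for DKO tumors over controls, 1.73 (SE 1.07, edgeR adjusted p = 0.450) for TKO tumors over controls and 1.11 (SE 1.05, edgeR adjusted p = 0.766) for TKO over DKO tumors. Without DKO 2 the first of these was -0.43.

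Igf2 fell into a low and a high range among the control livers themselves. Its counts were 10, 286, 10 and 791 in control livers, 11, 74, 55 and 7 in DKO tumors and 5, 644, 333 and 9 in TKO tumors. In CPM, control 2 and control 4 had 35.2 and 57.9, TKO 2 and TKO 3 had 45.8 and 25.5, and the other 8 libraries had 0.301 to 5.85. All 4 DKO tumors were thus below the higher pair of control livers, and DKO 4 was below all 4 control livers. Means were 23.6 CPM ± 28.0 (SD, n = 4) in controls, 2.59 ± 2.51 (SD, n = 4) in DKO tumors and 18.1 ± 21.9 (SD, n = 4) in TKO tumors. The log2 fold change of DKO tumors over controls was -3.20 (SE 1.57, edgeR adjusted p = 0.240), and that of TKO tumors over controls was -0.38 (SE 1.40, edgeR adjusted p = 0.926). The latter changed sign without control 4, to 0.60, and was 0.02 and 0.01 without TKO 1 and TKO 4. TKO over DKO tumors gave 2.81 (SE 1.56, edgeR adjusted p = 0.603).

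H19 and Igf2 compete for shared enhancers and are read from opposite parental copies, so their ratio was taken per library and per length. H19 exceeded Igf2 in all 12 libraries, by 30.6, 2.36, 23.4 and 3.12 times in control livers, by 56.8, 50.8, 30.4 and 51.9 times in DKO tumors and by 1595.1, 9.63, 2.45 and 27.3 times in TKO tumors. TKO 1 combined the highest H19 of the 12 libraries with the lowest Igf2, 3444 against 5 counts. The 4 libraries with high Igf2, control 2, control 4, TKO 2 and TKO 3, had the 4 lowest ratios. Igf2 is the divisor of the ratio, so this follows largely from picking them by Igf2 and does not show competition.

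**Figure D2:**
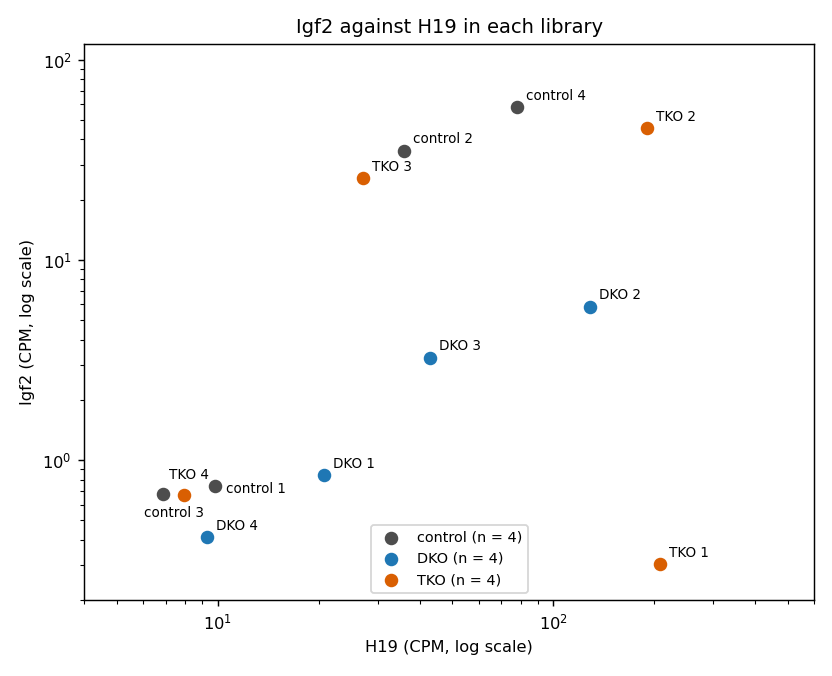
Igf2 (vertical axis, CPM, log scale) against H19 (horizontal axis, CPM, log scale), with 1 point per library and 4 libraries in each of the control, DKO and TKO groups. Control 2, control 4, TKO 2 and TKO 3 lie at 25.5 to 57.9 CPM of Igf2, and TKO 1 stands apart at 208 CPM of H19 with 0.301 CPM of Igf2.

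Meg3 and Dlk1 belong to the Dlk1-Dio3 domain, where Meg3 is a long noncoding RNA of the maternal copy and Dlk1 a membrane protein of the paternal copy that keeps precursor cells undifferentiated. Meg3 had 35, 21, 40 and 56 counts in control livers, 28, 17, 41 and 26 in DKO tumors and 15, 16, 42 and 2307 in TKO tumors. TKO 4 alone was far above the other 11 libraries, at 172 CPM against 0.904 to 4.10 CPM. In DKO tumors all 4 values, 2.15, 1.34, 2.43 and 1.53 CPM, were below the lowest control liver at 2.58 CPM, and 7.3% of all 13882 genes tested were lower in DKO tumors without overlap. In the fit, the log2 fold change was -0.69 (SE 1.40, edgeR adjusted p = 0.800) for DKO tumors over controls and 3.87 (SE 1.38, edgeR adjusted p = 0.205) for TKO tumors over controls. The fit took 1 spread from all 12 libraries, TKO 4 among them, so the first SE and p-value do not describe control and DKO libraries alone. The SD of log2 CPM was 0.309 in control livers, 0.370 in DKO tumors and 3.43 in TKO tumors. Without TKO 4 the TKO value turned to -0.79, and that of TKO over DKO tumors went from 4.56 (SE 1.44, edgeR adjusted p = 0.450) to -0.10.

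The same tumor was high for other genes of this domain. Rian, a noncoding host of small RNAs next to Meg3, had 4 to 36 counts in the other 11 libraries and 1217 in TKO 4. Rtl1, a retrotransposon-derived gene between them that is read from the paternal copy and overlaps maternal microRNA genes on the opposite strand, had 1 to 5 counts elsewhere and 40 in TKO 4. Without a known strand setting, these 40 counts cannot be assigned to Rtl1 or to RNA of the maternal copy on the opposite strand. The other genes of the domain had few counts in any library. TKO 4 had 0 counts of Dlk1, 2 of Dio3, the deiodinase gene at the far end, and 1 of Begain, and other libraries had as many or more. Mirg, a further microRNA host, had 3 counts in TKO 4 and 0 or 1 in the others, too few to show whether it was raised. Summed over 7 genes of the domain, TKO 4 had 3570 counts and the other libraries 27 to 94. Dlk1 itself was near the limit of detection throughout, with 2, 1, 1 and 2 counts in control livers, 0, 4, 7 and 3 in DKO tumors and 1, 3, 0 and 0 in TKO tumors, and it did not pass the filter. A count of 0 allows up to 3 counts in that library.

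**Figure D3:**
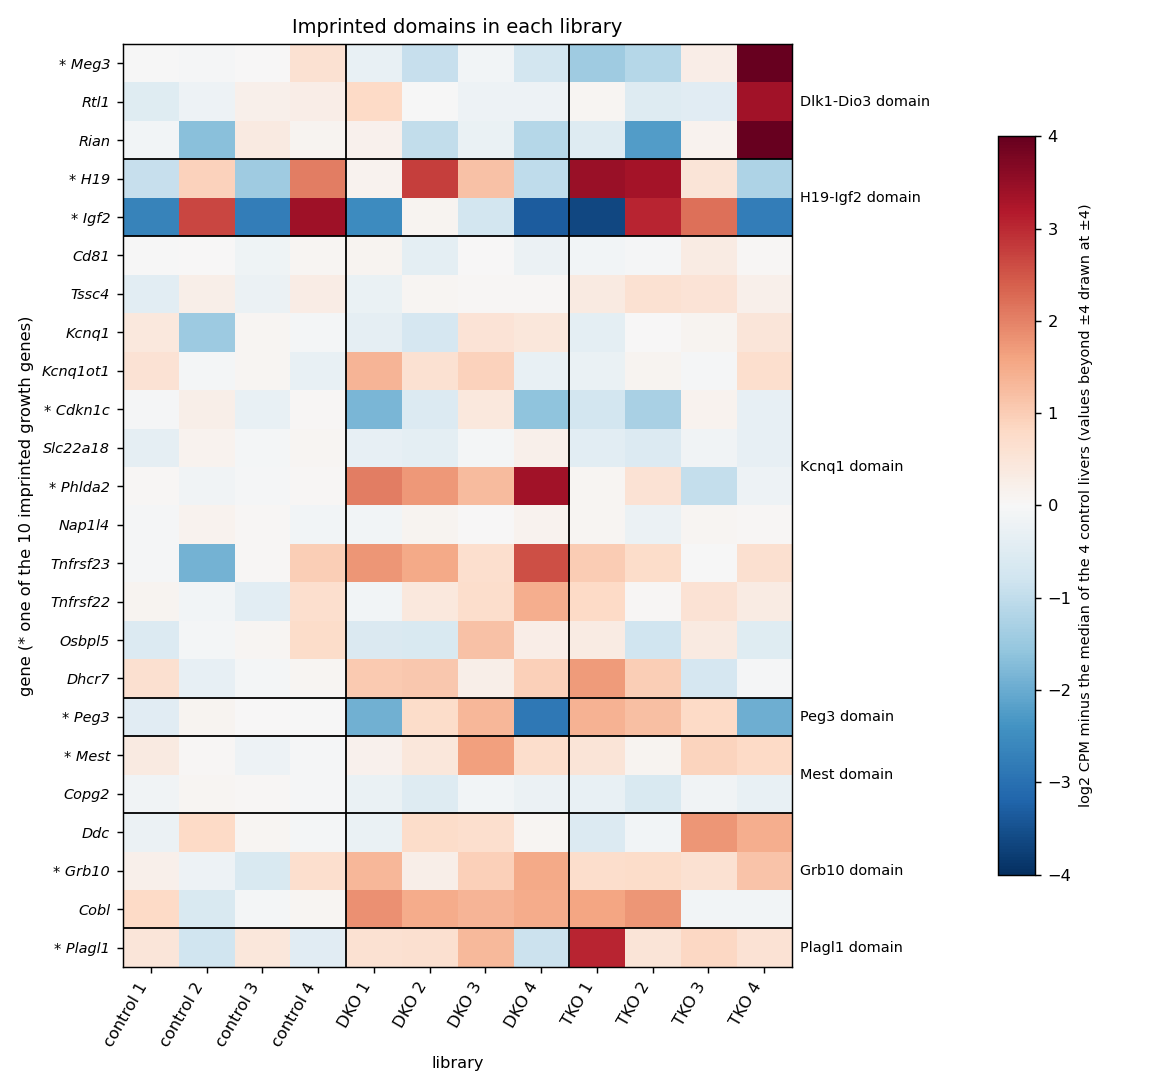
Levels of the listed genes (asterisks) and their domain neighbours in each library, for genes with at least 10 counts in some library, as log2 CPM minus the median of the 4 control livers (color, drawn to ±4). Rows are genes grouped by domain and columns are the 12 libraries; in the Dlk1-Dio3 domain TKO 4 is raised at Meg3, Rtl1 and Rian, and in the Kcnq1 domain the 4 DKO tumors are raised at Phlda2 while Slc22a18 and Nap1l4 stay near the control level.

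Grb10 was the listed gene closest to the threshold among those tested. It codes for an adaptor that binds the insulin and IGF1 receptors and dampens their signal. Control livers had 3.93, 2.95, 2.17 and 5.49 CPM, DKO tumors 8.74, 4.03, 6.68 and 9.96 CPM and TKO tumors 5.61, 5.76, 5.29 and 7.76 CPM. In each kind of tumor 3 of 4 libraries were above every control liver. The log2 fold change of DKO tumors over controls was 1.01 (SE 0.322, edgeR adjusted p = 0.0903), and it lay between 0.82 and 1.29 when each library was left out in turn. With DESeq2 and with voom, the same change had adjusted p-values of 0.0378 and 0.0321. Over all genes, DESeq2 called 1491 of 14983 and voom 1804 of 13882 in that comparison. TKO tumors gave 0.74 (SE 0.322, edgeR adjusted p = 0.280) over controls. The endothelial markers Pecam1, Cdh5, Kdr, Stab2 and Lyve1 summed to 78.1 to 131 CPM in control livers, 112 to 173 CPM in DKO tumors and 125 to 204 CPM in TKO tumors, with none of the 5 at 0. Their part in the Grb10 values was not tested. Cobl, an actin nucleator gene beside Grb10, had a log2 fold change of 1.41 (SE 0.429, edgeR adjusted p = 0.0829) in DKO tumors over controls. All 4 DKO tumors were above all 4 control livers in CPM, as for 8.87% of all genes tested.

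Mest and Peg3, genes of the paternal copy, differed in how far the tumors spread. Mest, which codes for a predicted hydrolase and marks mesoderm, had 4.67, 3.69, 3.12 and 3.51 CPM in control livers, 4.06, 4.98, 11.5 and 5.95 CPM in DKO tumors and 5.19, 3.91, 6.83 and 6.34 CPM in TKO tumors. As with Grb10, 3 of 4 libraries in each kind of tumor were above every control liver. On the log2 scale the fold change was 0.82 (SE 0.316, edgeR adjusted p = 0.139) for DKO and 0.57 (SE 0.317, edgeR adjusted p = 0.402) for TKO tumors over controls. DKO 3 was the highest library, and without it the DKO value was 0.42.

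Peg3, a zinc finger protein gene, was even among control livers, at 4.08, 6.15, 5.69 and 5.56 CPM, and uneven among tumors. DKO tumors had 1.38, 9.49, 14.3 and 0.649 CPM, a 22.0-fold range, and TKO tumors had 14.8, 13.3, 9.97 and 1.34 CPM. No tumor lay within the control range: 2 DKO tumors and 3 TKO tumors were above it, and the other 2 DKO tumors and 1 TKO tumor were below it. The log2 fold changes over controls, 0.27 (SE 0.810, edgeR adjusted p = 0.869) for DKO and 0.88 (SE 0.809, edgeR adjusted p = 0.636) for TKO tumors, average over these 2 directions, and without DKO 3 the DKO value turned to -0.50.

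Plagl1 codes for a zinc finger transcription factor that acts on other imprinted genes. It had 15, 3, 16 and 7 counts in control livers, 16, 16, 35 and 6 in DKO tumors and 120, 16, 19 and 16 in TKO tumors. In CPM all 4 TKO tumors, at 7.24, 1.14, 1.46 and 1.19, were above the highest control liver, at 1.11, and 4.38% of all genes tested were higher in TKO tumors without overlap (3.29% were lower, 7.67% in either direction). The nearest pair, TKO 2 at 1.14 CPM and control 1 at 1.11 CPM, rest on 16 and 15 counts. The log2 fold change of TKO tumors over controls was 1.80 (SE 0.700, edgeR adjusted p = 0.235) and went to 0.66 without TKO 1. DKO tumors gave 0.63 (SE 0.712, edgeR adjusted p = 0.624) over controls, and TKO over DKO tumors gave 1.17 (SE 0.669, edgeR adjusted p = 0.613), or 0.04 without TKO 1.

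Among the listed genes other than Phlda2, 8 were tested, and none passed an edgeR adjusted p of 0.05 in any comparison. Over all genes, 2.42% passed in DKO tumors against controls, 0.0864% in TKO tumors against controls (0.0504% higher and 0.036% lower) and 0% in TKO against DKO tumors. At an unadjusted p under 0.05, 2 of the 8 passed in the first comparison, 3 in the second and 1 in the third, against 3329, 2259 and 1250 of 13882 genes. DESeq2 called 1 of them, Grb10, in DKO tumors against controls and none in the others, and over all genes it called 9.95%, 3.32% and 0.398% in the 3 comparisons. The log2 fold change was positive for 5 of the 8 in DKO tumors over controls, for 6 in TKO tumors over controls and for 6 in TKO over DKO tumors. Over all genes 51.6%, 52.5% and 51.2% were positive. The medians of the 8 were 0.45, 0.81 and 0.86 against 0.02, 0.02 and 0.01 over all genes. Some of the positive values rest on 1 library. Without TKO 4, Meg3 went to -0.79 in TKO tumors over controls and -0.10 over DKO tumors. Without TKO 1, Plagl1 went to 0.04 in TKO over DKO tumors. The comparisons share libraries, so these medians are not separate evidence.

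**Figure D4:**
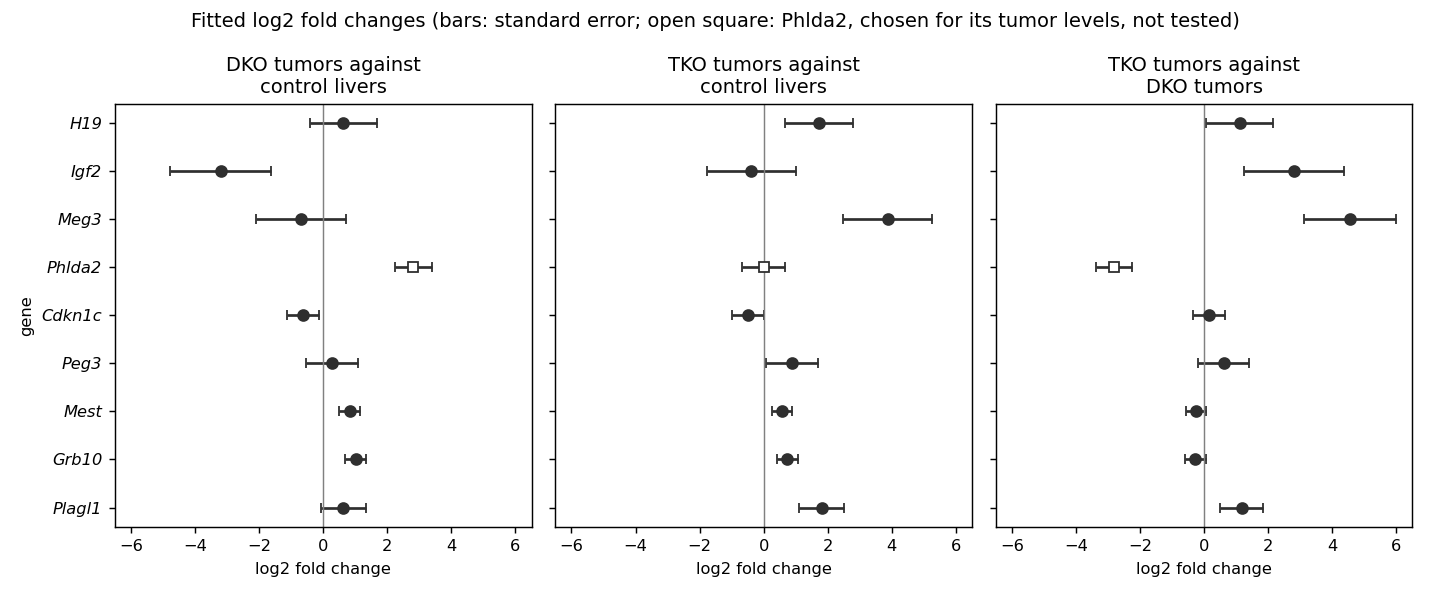
Fitted log2 fold change (horizontal axis) of the 9 genes that passed the low-count filter (vertical axis) in each of the 3 comparisons, with bars for the standard error. Filled circles are tested genes, of which none passed. Grb10 was at 1.01 with an edgeR adjusted p of 0.0903 in DKO tumors against controls. The open square is Phlda2, at 2.81 and -2.82 in the DKO against control and TKO against DKO panels. Phlda2 was chosen for its tumor levels and not tested, so its bars are not to be read as a test.

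A wider list of 73 other imprinted genes, drawn from general knowledge of mouse imprinting, gave 72 genes in the table and 48 that could be tested. None passed an edgeR adjusted p of 0.05 in any of the 3 comparisons. At an unadjusted edgeR p under 0.05, 7, 5 and 7 of the 48 passed, against 3329, 2259 and 1250 of all 13882 genes tested. DESeq2 called 4 of them in DKO tumors against controls, namely Cobl, Tnfrsf23, Jade1 and Slc38a4, where it called 9.95% of all genes, and none in the other comparisons. Their median log2 fold changes were -0.09, 0.06 and 0.08. The highest values in DKO tumors over controls were those of Atp10a at 3.25, Tnfrsf23 at 1.78 and Cobl at 1.41, and the lowest were those of Ndn at -1.53, Slc38a4 at -0.93 and Calcr at -0.84. In TKO tumors over controls the highest were Rian at 3.76, Atp10a at 3.44 and Slc22a3 at 2.14, and the lowest Ndn at -0.65, Dcn at -0.57 and Ppp1r9a at -0.55. Between the tumors, Rian at 4.14, Slc22a3 at 2.75 and Ndn at 0.88 were highest in TKO over DKO, and Tnfrsf23 at -1.21, Kcnq1ot1 at -0.62 and Cobl at -0.51 lowest.

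Several of these values came from 1 tumor or a few. Slc22a3, an organic cation transporter gene of the Igf2r domain, had 13 to 105 counts in 11 libraries and 1018 in TKO 4. Atp10a, a phospholipid flippase gene, had 36, 4, 17 and 10 counts in control livers, 10, 294, 32 and 407 in DKO tumors and 24, 9, 14 and 721 in TKO tumors. Airn, the paternal noncoding RNA that silences Slc22a3 and Igf2r on that copy, was singled out after its values were seen. Airn had 27, 43 and 60 counts in DKO 2, DKO 4 and TKO 4, the same 3 libraries in which Atp10a was high, and 1 to 8 counts in the other 9. It did not pass the filter. Among the genes that passed the filter, Cobl and Impact were higher and Slc38a4, an amino acid transporter gene, was lower in DKO tumors than in control livers without overlap in CPM. Of all genes tested, 8.87% and 7.3% were higher and lower in this way. Peg10, which did not pass the filter, was also higher without overlap, at 0.554 to 1.95 CPM in DKO tumors against 0.369 to 0.519 CPM in control livers. The nearest pair, DKO 2 and control 1, both had 7 counts, so only the scaling to library size set them apart. Impact was also higher and Slc38a4 lower without overlap in TKO tumors than in control livers, as 4.38% and 3.29% of all genes tested were. Tssc4 and Jade1 were higher without overlap in TKO than in DKO tumors, as 2.75% of all genes were.

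The genes around the growth signal of Igf2 did not pass the test. Of 10 genes for insulin-like growth factors, their receptors, substrates and Igf2 mRNA-binding proteins, 8 were tested and edgeR called none in any comparison. At an unadjusted edgeR p under 0.05, 1, 0 and 0 of the 8 passed, against 3329, 2259 and 1250 of all 13882 genes tested. DESeq2 also called none. Igf2r, an imprinted receptor that clears IGF2 from the cell surface, had 308 to 851 counts in control livers, 769 to 2250 in DKO tumors and 625 to 1860 in TKO tumors, with a log2 fold change of 0.70 (SE 0.406, edgeR adjusted p = 0.317) for DKO tumors over controls. Igf1, the main postnatal growth factor from liver, had a log2 fold change of -0.45 (SE 0.408, edgeR adjusted p = 0.528) in DKO tumors over controls and -0.81 (SE 0.410, edgeR adjusted p = 0.351) in TKO tumors over controls.

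A list of 15 genes held regulators of imprinted or fetal liver genes together with the fetal liver genes Afp and Gpc3, and 14 were tested. edgeR called 1, the gene of the fetal serum protein alpha-fetoprotein, Afp, higher in DKO tumors than in controls, where 1.41% of all genes were, and none of the regulators. DESeq2 called Afp, Uhrf1 and Ezh2 in that comparison, Trim28 and Ezh2 in TKO tumors against controls and Afp in TKO against DKO tumors. Over all genes, DESeq2 called 9.95%, 3.32% and 0.398% in these comparisons. Afp had 32, 31, 36 and 63 counts in control livers, 388, 376, 100 and 1757 in DKO tumors and 63, 88, 22 and 54 in TKO tumors. In CPM the DKO tumors had 29.7, 29.7, 5.91 and 104, all above the control livers at 2.37 to 4.61, as for 8.87% of all genes tested. DKO 3 was below TKO 2 at 6.25. DKO 4 was highest, as for Phlda2. The log2 fold change of DKO tumors over controls was 3.68 (SE 0.709, edgeR adjusted p = 0.0392), and that of TKO tumors over controls was 0.26 (SE 0.690, edgeR adjusted p = 0.893). TKO over DKO tumors gave -3.42 (SE 0.693, edgeR adjusted p = 0.281). The call in DKO tumors was lost when any control liver, DKO 1, DKO 2, DKO 4 or TKO 1 was left out, with adjusted p-values of 0.00938 to 0.134 over the 12 omissions. Zhx2, a repressor of Afp and H19 after birth, had a log2 fold change of 0.44 (SE 0.168, edgeR adjusted p = 0.135) in DKO tumors over controls. Trim28, which helps to keep imprints methylated, had 0.52 (SE 0.103, edgeR adjusted p = 0.0908) in TKO tumors over controls, and Uhrf1, a partner of the maintenance methyltransferase, had 2.23 (SE 0.758, edgeR adjusted p = 0.106) in DKO tumors over controls.

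The 6 relatives of listed genes that are not imprinted differed in direction. Cdkn1a, which codes for p21, a relative of p57, was higher in DKO tumors than in controls, as 1.41% of all genes were. It had 75, 30, 43 and 185 counts in control livers, 542, 527, 666 and 296 in DKO tumors and 231, 406, 184 and 289 in TKO tumors. Its log2 fold change in DKO tumors over controls was 2.43 (SE 0.467, edgeR adjusted p = 0.0389), a call lost without control 1, control 2, control 3, DKO 1, DKO 2 or DKO 4 (adjusted p up to 0.134). In TKO tumors it had 13.9 to 28.9 CPM, above all 4 control livers at 2.91 to 13.5 CPM, as 4.38% of all genes tested were without overlap. The nearest pair was TKO 1 at 13.9 CPM and control 4 at 13.5 CPM. The log2 fold change of Cdkn1a in TKO tumors over controls was 1.60 (SE 0.458, edgeR adjusted p = 0.146). DESeq2, which called 3.32% of all genes there, and voom, which called 97 of 13882, called it, and edgeR did not. Phlda1 and Phlda3 are relatives of Phlda2. In DKO tumors over controls, Phlda1 had -1.72 (SE 0.557, edgeR adjusted p = 0.0935) and Phlda3 had 0.64 (SE 0.587, edgeR adjusted p = 0.537), and neither passed with edgeR. DESeq2, voom, the 8 libraries alone and the replicate block called Phlda1 in that comparison. Of all genes, DESeq2 called 9.95% there, voom 1804 of 13882, the 8 libraries 759 of 13443 and the block 509 of 13882. Cdkn1b, Grb7 and Grb14 did not pass with edgeR or DESeq2.

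The genes whose log2 CPM most resembled that of Phlda2 over the 12 libraries were Afp (Pearson r 0.961, Spearman rho 0.818), Itga3 (0.946, 0.888), Gripap1 (0.940, 0.797), Nrd1 (0.930, 0.902) and Piga (0.929, 0.979). Without DKO 4, the library with the most Phlda2, the r of these 5 genes was 0.892 to 0.923. Itga3, an integrin subunit gene, had 71 to 135 counts in control livers, 149 to 390 in DKO tumors and 101 to 154 in TKO tumors, and Piga, needed for membrane anchors of surface proteins, had 71 to 150, 194 to 359 and 79 to 197. These coefficients describe the same 12 libraries with their depth and composition, and they were the highest among all the genes tested.

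For most of the other listed genes the closest matches are given here, and they differed from gene to gene. Grb10 was closest to the endothelial genes Pdgfb (r 0.949), Flt1 (0.942) and Robo4 (0.925), and these stayed at 0.909 to 0.951 without DKO 4. Igf2 was closest to the matrix genes Acan (0.967) and Col16a1 (0.934) and to S100a4 (0.919), and Cdkn1c to Gdf10 (0.944), Mamdc2 (0.932) and Abi3bp (0.926). Meg3 was closest to a gene without a symbol (0.989), Becn1 (0.940) and Rian (0.938), and without TKO 4 these went to 0.884, 0.509 and 0.578. H19 was closest to Cchcr1 (0.899), Peg3 to Ackr4 (0.938) and Plagl1 to Ccdc134 (0.869).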

How the data were processed

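RNA was measured in 12 libraries, 4 per group, from different mice. The authors purified polyadenylated RNA, sequenced it on a SOLiD instrument, aligned with BWA to mm9 and counted with featureCounts, per the labels and the study's methods. The deposited values are raw counts per Entrez gene, 9165812 to 16424973 per library, so that genes with few counts are measured least precisely. Of 26301 genes, 24191 were given a symbol from RefSeq. Exonic lengths and positions came from GENCODE on NCBIM37.

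edgeR 4.0.16 (R 4.3.3) was run with TMM scaling, its low-count filter and quasi-likelihood tests over all 12 libraries and 13882 genes, with Benjamini-Hochberg adjustment at 0.05. Log2 CPM used a prior count of 2, and standard errors were derived from the F statistic. The tests were checked on simulated counts. Alternatives were DESeq2 1.42.0, voom with quality weights (limma 3.58.1), other scalings and filters, the 8 libraries of a comparison alone, a sex-linked covariate, a replicate block, a threshold of 0.1 and leaving out each library.

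The listed genes and all gene lists were chosen with earlier results of these data known. Named genes were all 10 listed genes, the 3 highest and 3 lowest other imprinted genes per comparison, the context lists, and the 5 genes most like Phlda2 or 3 most like each other listed gene, of which some are not reported here. p-values measure the spread between these mice.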

Additional observations from a re-analysis of the deposited data

Results flagged for a closer look

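A library stood apart from the other 3 of its group, by Dixon's ratio on log2 CPM beyond its 95% critical value, in 7 of 72 groups examined over 24 genes. For genes chosen without regard to their values, chance flags about 1 in 20 groups. Part of the 24 genes was chosen for the highest or lowest fold changes, which an outlying library can produce. The count is therefore not set against that rate. Among the listed genes, Meg3 was highest in control 4 (ratio 0.896, 4.10 CPM against 2.58 to 2.71), Peg3 was lowest in TKO 4 (0.830, 1.34 CPM against 9.97 to 14.8) and Plagl1 was highest in TKO 1 (0.873, 7.24 CPM against 1.14 to 1.46). On the CPM scale Meg3 in TKO 4 also stood apart (0.986), and Peg3 in TKO 4 did not (0.640).

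Outside the listed genes, Atp10a was highest in TKO 4 (0.833, 721 counts), Ppp1r9a in control 4 (0.891), Slc38a4 in control 3 (0.864) and Rb1 in DKO 1 (0.859, 147 counts).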

How the results depend on the processing

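Low counts limit Phlda2, Plagl1 and Dlk1, and 1 or 2 libraries decide the values of H19, Igf2, Meg3 and Peg3. Of the listed genes other than Phlda2, none was called in DKO tumors against controls with edgeR, and 1, Grb10, with DESeq2, voom, the replicate block or a threshold of 0.1 (log2 fold change 1.01, 1.21, 1.03 and 1.01, adjusted p 0.0378, 0.0321, 0.0496 and 0.0903). Of the other imprinted genes, 4 were called there with DESeq2, 4 with voom, 1 (Cobl) with the 8 libraries alone and 5 at 0.1. Over all genes, DESeq2 called 1491 of 14983 in DKO tumors against controls and voom 1804 of 13882. The 8 libraries alone called 759 of 13443, the block 509 of 13882 and the threshold of 0.1 called 1460 of 13882. The calls in the 2 lists are therefore not read as a result about imprinted genes. In the other 2 comparisons the count stayed at 0 for both lists under all alternatives run, and leaving out any library gave 0 in all 3.

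The sign turned for Peg3 in DKO tumors over controls with voom (-0.51) and the replicate block (-0.41), and for Igf2 in TKO tumors over controls with voom (0.84). When libraries were left out in turn, the log2 fold change over controls ranged from -0.43 to 1.54 for H19 and from -0.50 to 0.65 for Peg3 in DKO tumors, and from -1.43 to 0.60 for Igf2 and -0.79 to 4.28 for Meg3 in TKO tumors. TKO over DKO tumors ranged from -0.10 to 4.97 for Meg3, -0.13 to 0.86 for Cdkn1c and -0.42 to 0.15 for Mest. The cause was not tested. Of the alternative fold changes, 562 stayed the same, 14 turned, 4 gained a call and 1 moved. For tested genes, the same meant the same direction and side of the threshold. None of them was called in the main fit, so no call could be lost. The tally therefore does not show how steady the size of a change was. For Phlda2, which was not tested, it meant a shift below the SD within groups. Its value in TKO tumors over controls, from -0.42 to 0.28 with libraries left out, thus counted as the same although its sign changed. The filter of 10 counts in every library left out Igf2, Dlk1, Phlda2, Cdkn1c and Plagl1. The calls of Afp and Cdkn1a in DKO tumors were lost with the sex-linked covariate (edgeR adjusted p 0.0540 and 0.0506) and when some libraries were left out. That covariate set Xist against the Y-linked genes Ddx3y, Eif2s3y, Kdm5d and Uty. Xist reached the low-count cutoff in no library and each Y-linked gene reached it in every library. The covariate therefore did not separate the sexes, and calls lost with it do not show an effect of sex.

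Over all genes, 336 were called in DKO tumors against controls, 1491 with DESeq2, 1804 with voom, 759 with the 8 libraries, 1460 at 0.1, 509 with the block, 57 with the sex-linked covariate and 59 with total counts only, and 0 to 651 without 1 library (0 without control 2 or control 3). TKO tumors against controls gave 12, and 498, 97, 9, 80, 1, 0 and 9 in the same order, 22 with no filter and 0 to 231 without 1 library. TKO against DKO tumors gave 0, and 56 with DESeq2. With total counts, 88.1% of the DKO calls were higher against 58.3% with TMM, and the median of all genes moved to 0.17 in TKO tumors over controls and 0.11 in TKO over DKO tumors. Replicate numbers named different mice, and deviations of same-numbered libraries correlated at -0.17 to 0.05 between DKO and control, -0.12 to 0.22 between TKO and control and -0.01 to 0.37 between TKO and DKO, where 3 of 4 pairs were over 0.1 and each was its best match, a hint from the data only. In no comparison was every pair over 0.1, so the numbers were not taken to pair the samples.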
